A study of Mus musculus with 6 samples.

Results

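The genes described here are 9 of the 18193 genes with a probe set of their own on the array, the enzymes Cyp7a1, Cyp8b1, Cyp27a1, Cyp7b1, Hsd3b7, Akr1d1, Amacr and Baat and the repressor Nr0b2. They were chosen by name for their role in bile acid synthesis, with every probe set that the platform annotation gives to exactly 1 of them, which made 15 probe sets. None of the 9 lies on chromosome 12.

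Bile acids are made from cholesterol in hepatocytes, and their synthesis is the main route by which the body disposes of cholesterol. The classic route starts with Cyp7a1, while the alternative route starts with Cyp27a1 and goes on through Cyp7b1. Both routes share Hsd3b7, Akr1d1 and the steps that shorten the side chain and conjugate the product, and Cyp8b1 sets how much of the product is cholic acid. Bile acids returning to the liver lower their own synthesis through the receptor FXR, which induces Nr0b2 (SHP), a repressor of Cyp7a1 and Cyp8b1.

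Liver RNA of male A/J and A/J-12SM mice fed a high-fat diet for 7 weeks was hybridized to 6 one-colour Affymetrix arrays, 3 per strain, with RNA of 3 mice pooled on each. A/J-12SM is a consomic strain with chromosome 12 of SM/J on the A/J background, and it carries all of that chromosome, so a difference cannot be placed within it. All mice of both strains received the high-fat diet, and livers of mice on a standard diet were not analysed here. The study states an age of 6 weeks at the start of the diet and 13 weeks at its end, and a fast of 4 h before sampling, for the mice it describes, but does not say this apart for the livers on these arrays. Each array is a pool, so its value hides the spread between single mice. In liver tissue, fewer cells of a type and less RNA per cell cannot be told apart.

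The deposited MAS5 signals were brought to a common distribution (quantile normalization of log2 values), and each level below is such a normalized log2 signal unless called deposited. A difference is always A/J-12SM minus A/J. Before normalization the median difference over all probe sets was -0.22, with trimmed mean signals of 200.5 to 213.2 in A/J against 170.5 to 185.8 in A/J-12SM arrays. The Bio spike-in controls did not share this lower level, with a mean difference of 0.06 in the deposited values. The cause of the level difference was not tested. Of the 9 measured hepatocyte markers all were bright, with a summed level of 16.83 to 16.86 in A/J against 16.89 to 16.91 in A/J-12SM liver, so the tissue matched its label. A/J-12SM replicate 3 stood apart in the ratio of 5′ to 3′ actin signal, a measure of RNA quality, at 0.423 against 0.553 to 0.590 on the other arrays. By the Gapdh ratio it did not, since its 1.53 lay within the 1.45 to 1.55 of the others. On this array 22.7% of all genes had their lowest value and 22.3% their highest, against 15.0% to 16.0% and 13.6% to 17.0% on each of the others.

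None of the 9 genes passed the test between strains, and the largest differences were a lower value of Cyp8b1 and a higher value of Cyp7b1 in A/J-12SM liver. By the brightest probe set of each gene, limma gave 0 of 9 at an adjusted p under 0.05, where 0.066% of all genes passed, and 0 of 9 at an unadjusted p under 0.05, where 6.78% did. The unadjusted count depended on the setting. It was 3 of 9 with the deposited values (Cyp8b1, Akr1d1 and Baat), where 15.9% of all genes had such a p, 2 with the replicate number as a block (Cyp8b1 and Cyp7b1), 2 without A/J-12SM replicate 3 (Cyp7b1 and Akr1d1), and 0 or 1 in the others, and none passed after adjustment. The methods' t-test called 0 of 9 at either threshold. Over all 15 probe sets 0 passed after adjustment in limma (0.0555% of all probe sets) and 1 had an unadjusted p under 0.05 (6.23% of all probe sets), the probe set 1421075_s_at of Cyp7b1. Values were lower in A/J-12SM for 7 of the 9 genes, against 50.9% of all genes, with a median difference of -0.12 beside -0.01 for all genes. This count was 8 with the deposited values, where the median difference was -0.29 for the 9 genes and -0.22 for all genes. It was 5 with arrays centred on their medians and 5 with the arrays scaled to 1 trimmed mean. It was also 5 without A/J-12SM replicate 1 and 5 without A/J-12SM replicate 3, the array with the low actin ratio, and without the latter the median was -0.02. The 95% limma intervals of the 9 differences ran from -0.96 at the lowest to 0.64 at the highest. A log2 difference of 1 in either direction lay outside each of these 9 intervals, which depend on limma's prior variance. The unadjusted p of Cyp8b1 was 0.0688 in this limma fit, 0.195 with 1 prior variance and 0.232 with the methods' t-test. Intervals under those 2 settings were not computed, so a difference of 1 cannot be placed outside them.

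**Figure D1:**
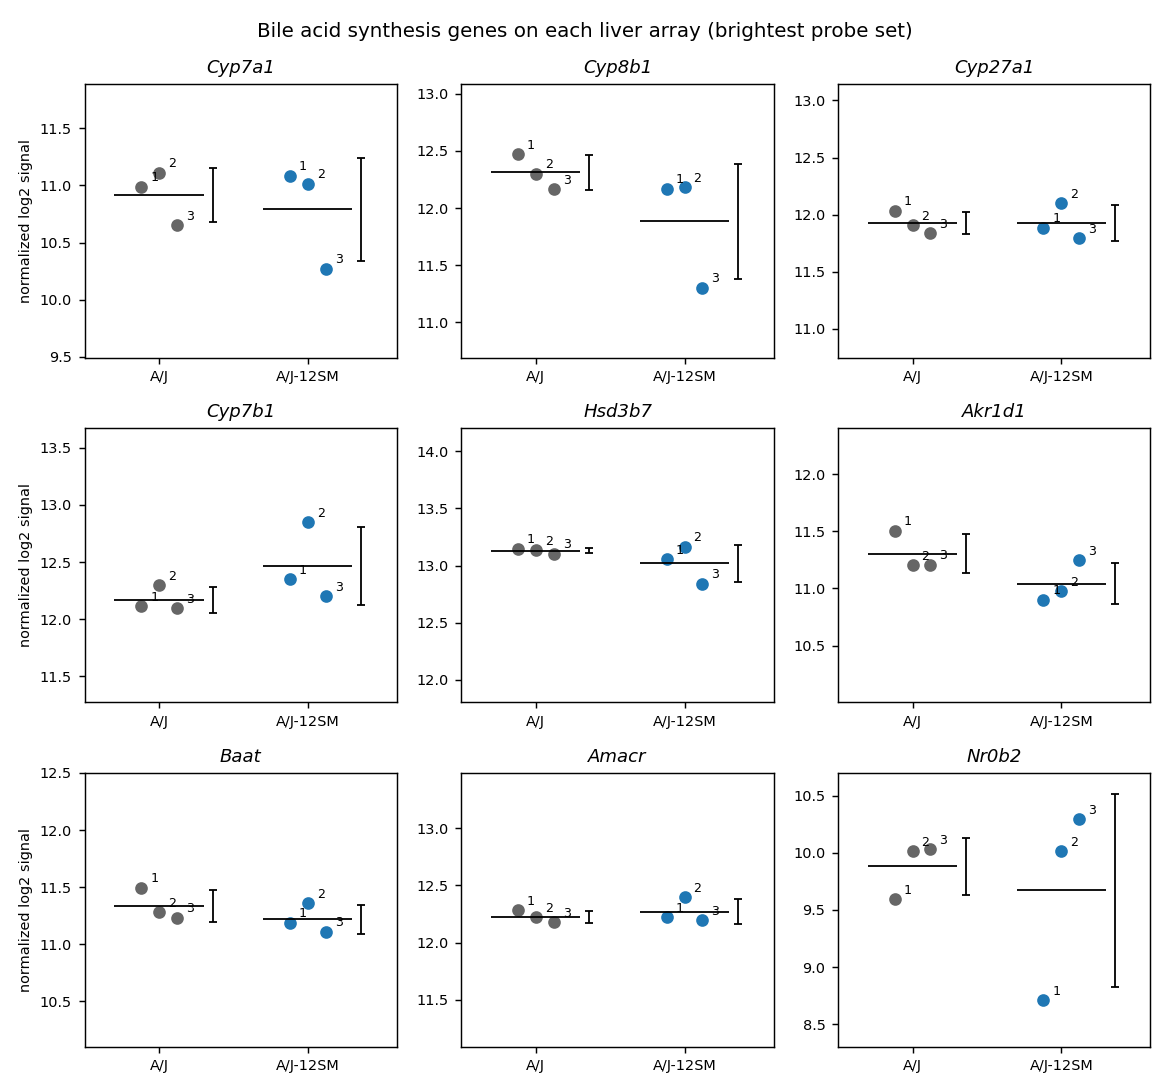
Normalized log2 signal (y axis, the same span in each panel) of the brightest probe set of each gene in A/J (grey) and A/J-12SM (blue) liver arrays (x axis). Points are single arrays numbered by replicate, with the mean of each strain as a line and its SD (n = 3) as a bar; Cyp8b1 of A/J-12SM replicate 3 lies at 11.31 and Nr0b2 of A/J-12SM replicate 1 at 8.71.

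Cyp7a1, the rate-limiting enzyme of the classic route, is on chromosome 4 (6265612 to 6275632 in the build GRCm38.p6, which also gives the positions below). The brighter of its probe sets (1438743_at) read 10.99, 11.11 and 10.65 in A/J replicates 1, 2 and 3, and 11.08, 11.01 and 10.27 in A/J-12SM replicates 1, 2 and 3. The strains overlapped, since A/J-12SM replicates 1 and 2 lay inside the A/J range and replicate 3 below it. The difference was -0.13 (SE 0.20, 95% interval -0.58 to 0.33, adjusted p = 0.942 from limma), or 0.916-fold. The other probe set of Cyp7a1 (1422100_at) read 9.83, 9.69 and 9.38 in A/J against 9.76, 9.59 and 8.33 in A/J-12SM arrays, and repeated the low value of replicate 3. Its difference of -0.40 had a wider interval (-1.11 to 0.30, adjusted p = 0.876 from limma). Without A/J-12SM replicate 3 the difference of the brightest probe set was 0.13. The deposited signals of that probe set were 1740 to 2248 in A/J against 1946, 1982 and 1149 in A/J-12SM arrays.

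Cyp8b1, which adds the hydroxyl group that makes cholic acid, is located at 121914356 to 121916305 of chromosome 9. The 150 bases before its start are printed here because Cyp8b1 had the largest difference of the 9 genes and is a target that Nr0b2 represses by way of the receptors NR5A2 (LRH-1) and HNF4A. They are RefSeq sequence of GRCm38.p6, on the minus strand, at chr9:121916306-121916455, with capitals at the matches to CAAAGTCCA (HNF4A), CAAGGNCA (NR5A2) and TATAAA (the TATA box), each searched on both strands.
Cyp8b1: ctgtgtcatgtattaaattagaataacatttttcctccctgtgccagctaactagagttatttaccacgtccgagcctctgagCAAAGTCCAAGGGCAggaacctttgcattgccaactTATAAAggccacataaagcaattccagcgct
The HNF4A match starts 67 bases before the start of the gene and overlaps the NR5A2 match, which starts at 60, and the TATA box starts at 31. Over 32851 promoter windows of this length, 0.271% held CAAAGTCCA, 3.09% CAAGGNCA and 7.57% TATAAA. A match describes the letters and does not show binding in these livers.

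The level of Cyp8b1 (1449309_at) was 12.47, 12.30 and 12.17 in A/J replicates 1, 2 and 3, and 12.17, 12.18 and 11.31 in A/J-12SM replicates 1, 2 and 3. A/J-12SM replicates 1 and 2 sat at the lower edge of the A/J range, and replicate 3 was far below all other arrays. The means were 12.31 ± 0.16 (SD, n = 3 arrays) and 11.89 ± 0.50 (SD, n = 3). The difference of -0.43 (SE 0.21, 95% interval -0.89 to 0.04) is 0.744-fold and had an adjusted p of 0.817 from limma. The exact two-sided permutation test gave p = 0.3, where 3 arrays against 3 cannot go below 0.1. Without A/J-12SM replicate 3 the difference was -0.14, and over the other normalizations it ran from -0.57 with the deposited values to -0.33 with arrays centred on their medians. The deposited signals were 6160, 5153 and 4864 in A/J against 4220, 4573 and 2460 in A/J-12SM, and limma on these values gave an adjusted p of 0.297. They do not overlap, but they carry the lower level of all A/J-12SM arrays, and the normalized values do overlap. The share of all probe sets without overlap was not counted for deposited signals. The part of RNA quality in the low values of Cyp7a1 and Cyp8b1 on A/J-12SM replicate 3 was not tested.

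Of the alternative route, Cyp27a1 had nearly the same mean in both strains and Cyp7b1 a higher value in A/J-12SM liver that did not pass the test. Cyp27a1, the mitochondrial enzyme that oxidizes the sterol side chain, is located at 74713148 to 74737897 of chromosome 1. Its bright probe set (1417590_at) read 12.04, 11.91 and 11.84 in A/J against 11.88, 12.10 and 11.79 in A/J-12SM arrays. The ranges nearly coincided, and the difference of -0.001 (SE 0.10, 95% interval -0.23 to 0.22) changed sign between scalings, at 0.08 with arrays centred on their medians and 0.04 with the arrays scaled to 1 trimmed mean. A second probe set given to Cyp27a1 (1457665_x_at) was near background, with deposited signals of 0.886 to 14.3, and gave -0.84 with an interval of -3.17 to 1.49.

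Cyp7b1, which hydroxylates oxysterols on the way to bile acids, is located at 18071944 to 18243890 of chromosome 3. Its brightest probe set (1421074_at) read 12.11, 12.30 and 12.10 in A/J against 12.35, 12.85 and 12.20 in A/J-12SM arrays. A/J-12SM replicates 1 and 2 lay above all A/J arrays, and replicate 3 lay inside the A/J range. The means were 12.17 ± 0.11 (SD, n = 3) and 12.47 ± 0.34 (SD, n = 3), a difference of 0.30 (SE 0.15, 95% interval -0.04 to 0.64, adjusted p = 0.825 from limma), or 1.23-fold. The second bright probe set (1421075_s_at) gave 11.20, 11.30 and 11.28 in A/J against 11.48, 12.12 and 11.48 in A/J-12SM arrays, with all 3 of the latter above all 3 of the former (exact two-sided permutation test, p = 0.1). Its difference was 0.43 (SE 0.16, 95% interval 0.08 to 0.78, adjusted p = 0.735 from limma), or 1.35-fold. The deposited signals of 1421075_s_at did overlap, at 2584, 2546 and 2659 in A/J against 2574, 4368 and 2754 in A/J-12SM arrays. With the deposited values the differences were smaller, at 0.16 for 1421074_at and 0.275 for 1421075_s_at. Both probe sets were highest on A/J-12SM replicate 2, without which the differences were 0.105 and 0.22. The remaining probe set (1446995_at) was near background, at 4.48 or less on every array, and had lower values in A/J-12SM without overlap (difference -0.48, SE 0.53). Among the 15 probe sets, 1 was higher and 2 were lower without overlap between strains, where 6.13% and 5.83% of all probe sets were, and by brightest probe sets 0 of 9 genes were without overlap (12.3% of all genes).

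**Figure D2:**
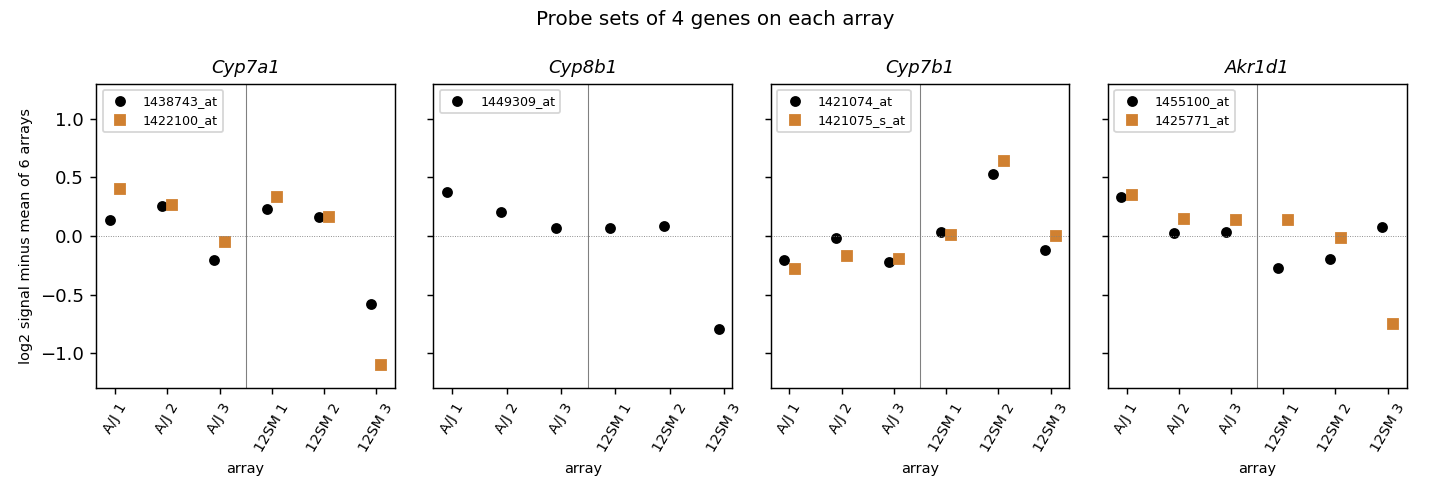
Log2 signal minus its mean over 6 arrays (y axis) for each probe set at or above median brightness of Cyp7a1, Cyp8b1, Cyp7b1 and Akr1d1 on each array (x axis; 12SM stands for A/J-12SM). Both Cyp7a1 probe sets and Cyp8b1 are lowest on A/J-12SM replicate 3, and the Akr1d1 probe sets part on that array.

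The strain difference of Cyp7b1 was set against that of each other gene, a comparison chosen after the values were seen. In each array the centred log2 value of the other gene was taken from that of Cyp7b1. The difference of Cyp7b1 exceeded that of Cyp8b1 by 0.72, with A/J arrays from -0.58 to -0.22 and A/J-12SM arrays from -0.04 to 0.68 (exact two-sided permutation test, p = 0.1, adjusted p = 0.2 over 8 comparisons). It exceeded that of Cyp27a1 by 0.30, of Hsd3b7 by 0.41 and of Baat by 0.42, also without overlap, and that of Cyp7a1 by 0.42, of Akr1d1 by 0.56, of Nr0b2 by 0.51 and of Amacr by 0.255, these with overlap. The arrays did not overlap in 4 of the 8 comparisons, while this was so for 18.8% of all 18192 other genes set against Cyp7b1 in the same way. Cyp7b1 had the highest difference among these genes, which favours gaps on its side, and all 8 comparisons reuse its values. The comparisons are therefore not independent, and 4 of 8 cannot be read as an excess over 18.8%. No adjusted p fell below 0.2, and the design does not allow one to pass.

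The enzymes that both routes share had differences from -0.26 for Akr1d1 to 0.04 for Amacr, none past the test. Hsd3b7, which oxidizes the ring after its hydroxylation, is located at 127800609 to 127803802 of chromosome 7 and read 13.15, 13.14 and 13.10 in A/J against 13.06, 13.16 and 12.84 in A/J-12SM arrays. The A/J arrays were nearly equal, and A/J-12SM replicates 1 and 3 fell below them while replicate 2 lay above. The difference was -0.11 (SE 0.10, 95% interval -0.33 to 0.11), and it was 0.04 with arrays centred on their medians and 0.008 with the arrays scaled to 1 trimmed mean.

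Akr1d1, the reductase that gives bile acids their bent ring, is located at 37529978 to 37574921 of chromosome 6 and has a pair of bright probe sets. The brightest (1455100_at) read 11.50, 11.20 and 11.21 in A/J against 10.90, 10.97 and 11.25 in A/J-12SM arrays. The other (1425771_at) read 11.20, 10.99 and 10.98 in A/J against 10.98, 10.83 and 10.09 in A/J-12SM arrays, without overlap by a narrow margin (10.984 in A/J replicate 3 and 10.981 in A/J-12SM replicate 1). The differences were -0.26 (SE 0.12, 95% interval -0.53 to 0.003, adjusted p = 0.802 from limma) and -0.43 (SE 0.20, 95% interval -0.87 to 0.02, adjusted p = 0.804 from limma). On A/J-12SM replicate 3, the array with the low actin ratio, the first was the highest of its strain and the second the lowest of all arrays. Without that array the differences were -0.36 and -0.15. Akr1d1 kept a lower value in A/J-12SM by its brightest probe set under each alternative computed, from -0.43 with the deposited values to -0.16 without A/J replicate 1.

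Amacr, the racemase that prepares the side chain for shortening in peroxisomes, is located at 10981756 to 10996624 of chromosome 15. It read 12.28, 12.22 and 12.18 in A/J against 12.22, 12.40 and 12.20 in A/J-12SM arrays, which overlapped. The difference was 0.04 (SE 0.09, 95% interval -0.15 to 0.24), the narrowest interval of the 9 genes, and it was -0.10 with the deposited values. Baat, which joins bile acids to taurine or glycine, is located at 49489416 to 49507915 of chromosome 4. Its brightest probe set (1419002_s_at) read 11.49, 11.28 and 11.23 in A/J against 11.19, 11.36 and 11.11 in A/J-12SM arrays, a difference of -0.12 (SE 0.10, 95% interval -0.35 to 0.11). The dimmer one (1419001_at) gave -0.24 (SE 0.15, 95% interval -0.58 to 0.10). The strains overlapped by both.

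Nr0b2, the repressor, is located at 133553376 to 133556686 of chromosome 4. The 150 bases before its start are printed for comparison with its target Cyp8b1, on the plus strand of GRCm38.p6 at chr4:133553226-133553375, with the same 3 motifs in capitals.
Nr0b2: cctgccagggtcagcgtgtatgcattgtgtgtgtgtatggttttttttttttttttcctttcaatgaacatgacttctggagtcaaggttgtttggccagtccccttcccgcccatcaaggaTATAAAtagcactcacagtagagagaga
Only the TATA box was matched, 28 bases before the start, and the letters of the other motifs were not in this window. Variants of these letters were not searched, so other sites for the same factors may be present. A promoter was found in the RefSeq table for 5 of the 9 genes, and among these only Cyp8b1 and Nr0b2 held a match to any of the 3 motifs.

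The level of Nr0b2 (1449854_at) was 9.60, 10.02 and 10.03 in A/J replicates 1, 2 and 3, and 8.71, 10.01 and 10.29 in A/J-12SM replicates 1, 2 and 3. The A/J-12SM arrays held both the lowest and the highest value. The means were 9.88 ± 0.25 (SD, n = 3) and 9.67 ± 0.84 (SD, n = 3), with a difference of -0.21 (SE 0.34, 95% interval -0.96 to 0.54, adjusted p = 0.942 from limma). Without A/J-12SM replicate 1 the difference was 0.27. The deposited signals were 869.3, 1071 and 1139 in A/J against 375.3, 994.8 and 1175 in A/J-12SM. On A/J-12SM replicate 1, where Nr0b2 was lowest, Cyp7a1 at 11.08 and Cyp8b1 at 12.17 lay inside their A/J ranges. On A/J-12SM replicate 3, where Nr0b2 was highest, both of its targets were lowest. This is the array with the low actin ratio, and 22.7% of all genes were lowest there, Cyp27a1, Hsd3b7 and Baat among them. A link between Nr0b2 and its targets was not tested. Among the A/J arrays Cyp8b1 was highest on replicate 1, where Nr0b2 was lowest, while Cyp7a1 was highest on replicate 2, with Nr0b2 at 10.02.

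**Figure D3:**
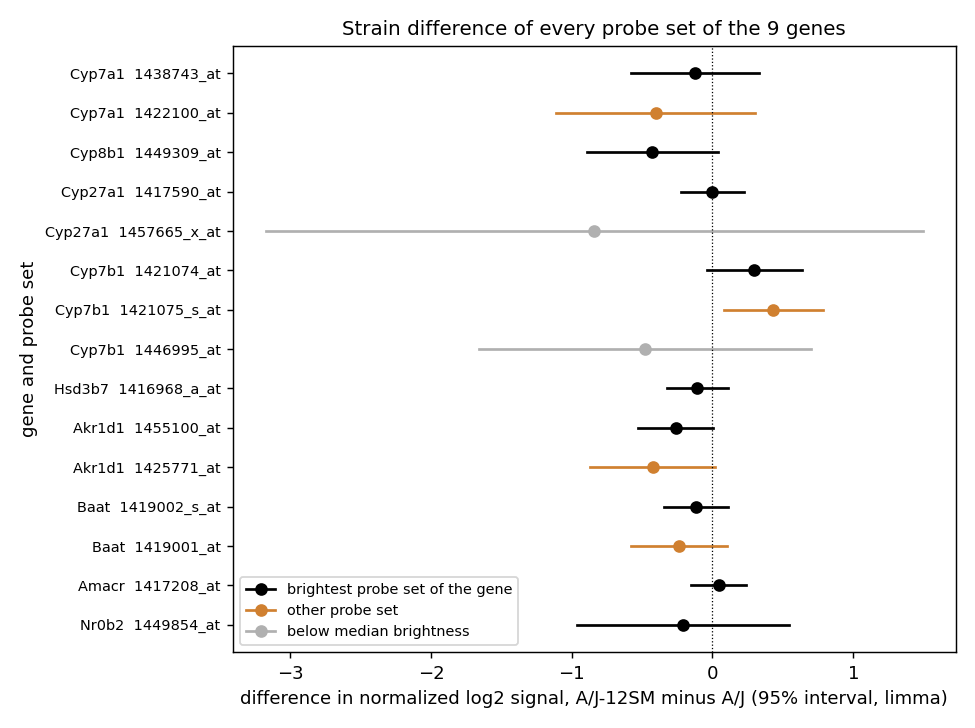
Difference in normalized log2 signal (x axis, A/J-12SM minus A/J) of every probe set of the 9 genes (y axis); points are limma estimates and bars 95% intervals, from 3 arrays per strain. All intervals but that of the Cyp7b1 probe set 1421075_s_at (0.08 to 0.78) include 0, and both grey probe sets are near background.

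The 9 genes differed in how much they varied between replicates of a strain. The SD between replicates was 0.62 for Nr0b2, 0.36 for Cyp7a1 and 0.37 for Cyp8b1 by their brightest probe sets, larger than for 97.4%, 83.5% and 85.0% of all probe sets at or above median brightness. It was 0.09 for Amacr, 0.12 for Hsd3b7, 0.13 for Cyp27a1 and 0.13 for Baat, larger than for 9.01%, 18.6%, 23.5% and 24.4%. Akr1d1 at 0.18 and Cyp7b1 at 0.25 lay between, and the median of all bright probe sets was 0.21. The SD was larger in A/J-12SM than in A/J for 8 of the 9 genes, all but Baat, where this was so for 57.5% of all genes. It was 0.84 and 0.25 for Nr0b2, 0.45 and 0.24 for Cyp7a1, 0.50 and 0.16 for Cyp8b1, 0.34 and 0.11 for Cyp7b1, and 0.16 and 0.02 for Hsd3b7. With 3 arrays per strain, these SDs were not compared by a test. Of the 9 genes 5 had their lowest value on A/J-12SM replicate 3, namely Cyp7a1, Cyp8b1, Cyp27a1, Hsd3b7 and Baat, while Nr0b2 had its highest there and Cyp7b1, Amacr and Akr1d1 did neither. A/J-12SM replicate 2 held the highest value of 4 genes, Cyp27a1, Cyp7b1, Hsd3b7 and Amacr.

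The genes with the most similar pattern over the 6 arrays were sought by the mean absolute gap between centred log2 values, among 11041 other genes at or above median brightness. Nearest to Cyp8b1 were Mccc2, a subunit of an enzyme of leucine breakdown (gap 0.04), Tm7sf2, a sterol reductase of cholesterol synthesis (0.05), and Pex5, the receptor that imports proteins into peroxisomes (0.06). Like Cyp8b1 they were lowest on A/J-12SM replicate 3, where Tm7sf2 read 10.29 against 11.16 to 11.50 on the others. Nearest to Cyp7a1 were Pphln1 (0.04), Tbc1d13 (0.07) and Krt81 (0.07), and nearest to Nr0b2 were Mboat2, an acyltransferase of phospholipids (0.06), Fancc, a DNA repair protein (0.11), and Smoc2, a matrix protein (0.13). These gaps over 6 arrays are a description with no test.

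Other enzymes of bile acid synthesis did not pass the test either. Of 11 measured genes 0 were called in limma (1 at an unadjusted p under 0.05), 5 had higher and 6 lower values, and the median was -0.01. This median changed sign with the scaling, at -0.10 with the deposited values, 0.14 with arrays centred on their medians and 0.11 with the arrays scaled to 1 trimmed mean. Cyp2c70, which makes the muricholic acids of mice, read 12.15, 12.38 and 12.21 in A/J against 12.59, 12.51 and 12.52 in A/J-12SM arrays. All A/J-12SM arrays lay above all A/J arrays, by a difference of 0.29 (SE 0.09, unadjusted p = 0.00831, adjusted p = 0.622 from limma). Cyp39a1, an oxysterol hydroxylase, had 0.41 (SE 0.28), Ch25h, which makes an oxysterol from cholesterol, 0.40 (SE 0.46), and Acot8, a peroxisomal thioesterase, -0.21 (SE 0.16). Fdx1, the ferredoxin that passes electrons to Cyp27a1, had 0.08 (SE 0.08), and the array annotation gave no probe set to Por or Fdxr alone.

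Among 16 regulators of bile acid synthesis 0 were called in limma (2 at an unadjusted p under 0.05), with 9 higher and 7 lower values and a median of 0.04, which was -0.18 with the deposited values. Nr1h4, the bile acid receptor FXR, had a difference of -0.04 (SE 0.10) and Hnf4a one of -0.03 (SE 0.11), both named for their role after their values were seen. Nr5a2 (LRH-1), an activator of Cyp7a1 and Cyp8b1, read 9.67, 9.60 and 9.93 in A/J against 9.97, 9.87 and 10.34 in A/J-12SM arrays. A/J-12SM replicate 2 lay within the A/J range, and the difference was 0.33 (SE 0.14, adjusted p = 0.792 from limma). Klb, the co-receptor for the intestinal signal that lowers Cyp7a1, was without overlap, with 9.22 to 9.42 in A/J against 9.44 to 9.68 in A/J-12SM arrays (difference 0.26, SE 0.10, adjusted p = 0.763 from limma), and was named after its values were seen. Dbp, a clock factor that activates Cyp7a1, had 0.39 (SE 0.19), Klf15 had 0.34 (SE 0.23) and Ppargc1a, a coactivator, 0.28 (SE 0.15).

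Of 14 transporters of bile acids and sterols 0 were called in limma (2 at an unadjusted p under 0.05), with 10 higher and 4 lower values and a median of 0.16, which was -0.02 with the deposited values. Abcb11, the pump that exports bile acids into bile, read 11.36, 11.12 and 10.98 in A/J against 11.46, 11.50 and 11.45 in A/J-12SM arrays. The strains did not overlap, and the difference was 0.32 (SE 0.10, unadjusted p = 0.0116, adjusted p = 0.662 from limma). Abcc3, which exports conjugates back to blood, was lower without overlap at -0.30 (SE 0.10, adjusted p = 0.708 from limma). Slco1a4, an uptake carrier, had 0.41 (SE 0.29) and Abcg5, part of the sterol exporter, 0.25 (SE 0.11). By brightest probe sets, 2 of the 11 enzymes, 1 of the 16 regulators and 2 of the 14 transporters were without overlap, beside the 12.3% of all genes given above. Over all genes, limma called 0.066%, an unadjusted p under 0.05 was found for 6.78%, and 50.9% had lower values in A/J-12SM.

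**Figure D4:**
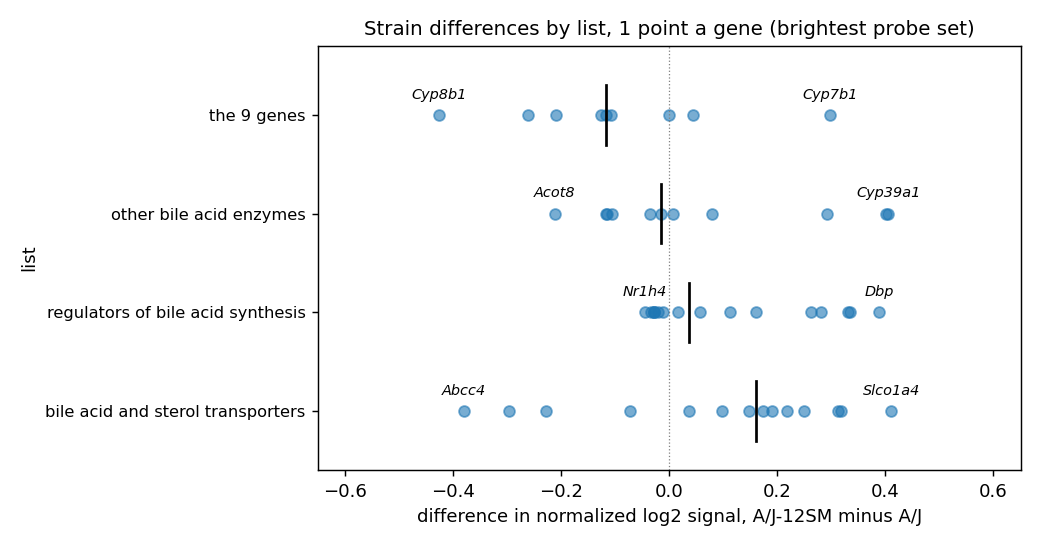
Difference in normalized log2 signal (x axis, A/J-12SM minus A/J) for the 9 genes and 3 further lists (y axis); each point is 1 gene by its brightest probe set, black bars are medians, and the lowest and highest gene of each list is named. The medians are -0.12, -0.01, 0.04 and 0.16, and no gene shown passed an adjusted p under 0.05 in limma. That of the other enzymes changes sign with another scaling. Those of the regulators and transporters change sign only with the deposited values, where the median of all genes was -0.22.

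No marker of another liver cell type passed the test in limma. Kupffer cell and macrophage markers were at lower values in A/J-12SM liver for all 8 genes, where 50.9% of all genes were. Their median was -0.27, from -0.66 for Marco to -0.05 for Adgre1, with summed levels of 12.48 to 12.77 in A/J against 12.29 to 12.59 in A/J-12SM. Marco was highest of all arrays on A/J-12SM replicate 1 (7.22) and lowest on replicate 3 (5.25), the array with the low actin ratio. The 6 stellate cell markers had higher values, with a median of 0.03, from 0.006 for Col1a1 to 0.64 for Lum, and summed levels of 11.86 to 11.99 and 12.02 to 12.22. The 6 sinusoidal endothelial markers had a median of -0.01 (Lyve1 -0.45 to Stab2 0.15) and summed levels of 11.71 to 11.79 and 11.72 to 11.80. The 4 measured bile duct markers were mostly near background, with a median of -0.52 (Krt7 -2.22 to Krt19 0.39) and summed levels of 6.54 to 7.39 and 6.19 to 6.79. None was listed at 0. The 9 hepatocyte markers had a median of 0.02, from -0.10 for Asgr1 to 0.28 for Cps1. An unadjusted p under 0.05 in limma was found for 1 Kupffer cell and macrophage, 2 stellate, 0 endothelial, 1 bile duct and 1 hepatocyte marker. Over all genes this share was 6.78%. The part of cell makeup in the values of the bile acid genes was not tested.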

How the data were processed

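Each of the 6 arrays has 1 linear intensity per probe set, as the authors deposited it. MAS5 is the tool named by the submitters' processing notes, with its version and scaling not given in the sources used here. Since array levels differed between strains, log2 values were quantile normalized without a pseudocount, which assumes that most genes do not differ. A/J-12SM and A/J were compared with limma 3.58.1 (R 4.3.3; lmFit, and eBayes with a prior variance that follows brightness) and no covariate. The fit took 45037 probe sets, leaving out 64 controls, with Benjamini-Hochberg adjustment and a threshold of 0.05. Intervals are 95% intervals of that fit. An exact two-sided permutation test over the arrays was run for single probe sets. Of the probe sets, 34945 carry 1 gene, 932 several and 9160 none; symbols and positions came from GRCm38.p6 RefSeq genes, which matched 34741. The brightest probe set stands for a gene, and dim ones vary more (median SD between replicates 0.86 against 0.21). The number of arrays limits the precision. The labels call the arrays biological replicates, and no array was left out.

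Named are the 9 genes with all their probe sets, in each list of the pathway up to 4 bright genes with the largest difference, the 3 genes most like Cyp7a1, Cyp8b1 and Nr0b2, and the extremes of the marker lists. The members and lists were chosen with earlier results of these data known. The fit was tested on simulated data. Alternatives were other normalizations, adding the 20th percentile of the signals (9.2) as an offset, dim probe sets (below the 40th percentile) left out, 1 prior variance, the methods' t-test, the replicate number as a block, averaging the probe sets of each gene, and each array left out in turn. Plots used matplotlib 3.10.9 (Python 3.11.15).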

Additional observations from a re-analysis of the deposited data

How the results depend on the processing

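No gene of the 9 and none of the pathway lists was called under any of the 15 alternatives, with a lowest adjusted p of 0.262 for the brightest probe sets (Akr1d1, deposited values). Of 135 gene values, 124 kept their direction. The others were Amacr with the deposited values (-0.10); Cyp27a1 and Hsd3b7 with each array centred on its median (0.076 and 0.038) and with the arrays scaled to 1 trimmed mean (0.045 and 0.008); and, with single arrays left out, Cyp7a1 (from -0.27 to 0.13), Cyp27a1 (from -0.087 to 0.064), Amacr (from -0.018 to 0.08) and Nr0b2 (from -0.52 to 0.27). Cyp8b1, Cyp7b1, Akr1d1 and Baat kept their direction under all 15, though the mean over all probe sets of Cyp7b1, which takes in the one near background, was 0.08. Over all probe sets 25 were called, 47 with the deposited values, 1 with 1 prior variance, 1 with the methods' t-test (2630 at an unadjusted p under 0.05) and 6 to 23 with single arrays left out. The cause was not tested. Whether replicate numbers pair the arrays could not be told from so few arrays. Correlations of same-numbered deviations were -0.06, 0.09 and 0.16, and those of other pairs ran from -0.23 to 0.15. In a limma fit with the replicate block 28 probe sets and 0 of the 9 genes were called, and the adjusted p of Cyp8b1 was 0.631. The number of arrays and, for dim probe sets, the signal over background limit the precision.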
